A study of Mus musculus with 550 samples.

Results

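The genes described here were 40 genes of meiosis and of the germ line, which somatic cells normally keep silent. They were chosen by name from the 55228 gene names of a single-cell read count table, and all 40 were in it. The cells came from embryoid bodies (EBs), aggregates in which mouse embryonic stem cells (ESCs) of the E14 line (strain 129/Ola) differentiate once LIF, which keeps them pluripotent, is withdrawn. Wild-type cells (WT) were compared with a Dnmt3a -/- mutant (3AKO) and a Dnmt3b -/- mutant (3BKO), each at day 3 and day 9 of EB growth, with 1 cell sorted into each well of a plate. Both deletions were carried by the ESCs themselves and so by every cell type that arose, and each mutant kept the gene of the other de novo enzyme. The study's methods describe 2 independent clones per mutant and EBs pooled before sorting, but the labels tie no cell to a clone or culture. Each genotype at each day, 6 in all, was therefore 1 sample, no difference below has a replicate check, and no test was run.

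Of 550 cells, 486 had at least 50000 reads, at least 2000 detected genes and at most 50% mitochondrial reads, and these were used: 79 WT, 83 labelled 3AKO and 80 labelled 3BKO at day 3, and 89, 88 and 67 at day 9. The median was 263902 reads and 6541.5 detected genes per cell. Wells of plate columns 1 to 8 formed library batch 1 (333 cells) and the other columns batch 2 (153 cells), so each group gave 2 sums of 8071118 to 22867811 reads. These 2 sums share a plate at day 9 and are not biological replicates. At day 9 each genotype was on a plate of its own, so plate and genotype cannot be told apart there. At day 3 WT was alone on plate 209, and on day 9 on plate 234, so plate cannot be told apart from genotype where a day 3 mutant is set against WT, nor from day where the WT days are compared. Levels are read counts scaled to the total of their sum (CPM), and a pair of values is always batch 1 and then batch 2.

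The deleted genes were checked first. Dnmt3a had 177 and 144 CPM in WT at day 9, 26.1 and 23.9 in 3AKO, and 84.1 and 44.8 in 3BKO. Dnmt3b had 166.5 CPM over both batches of WT at day 9, 252.0 in 3AKO and 16.4 in 3BKO. At day 3 WT had 455 and 267 CPM of Dnmt3a, the label 3AKO 25.8 and 335, and the label 3BKO 587 and 12.8. Of Dnmt3b, WT had 600.1 and 523 CPM at that day, the label 3AKO 261 and 85.1, and the label 3BKO 167 and 185, below WT under both labels and on both plates. By Dnmt3a, batch 2 at day 3 went against its mutant labels, and the day 3 values below are given by label and also by plate. On plate 211 the batch 1 wells were labelled 3AKO and the batch 2 wells 3BKO, and on plate 210 the reverse. As for the labelled cell type, all 12 epiblast and pluripotency markers listed had reads in 11 of the 12 sums, and only Fgf5 was at 0 in batch 2 of 3BKO at day 9.

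In meiosis, chromosome axes held together by specialised cohesin pair up along the synaptonemal complex while programmed DNA breaks are repaired by recombination. Germ cells also make piRNAs, small RNAs bound by PIWI proteins in Tudor-rich granules, which silence transposons. In other cells the promoters of many such genes are repressed by DNA methylation, laid down by DNMT3A and DNMT3B after implantation, and by the Polycomb complex PRC1.6, which is recruited through E2F6 and MGA:MAX.

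Promoter sequence is shown for 6 genes because DNA methylation acts on CpG sites: the 4 with the largest ratios to WT in a mutant at day 9, and the 2 with the highest WT level per kilobase. Each line is the 250 bases before the RefSeq start of the gene (GRCm38.p6), 5′ to 3′ on the gene's strand, with CpG dinucleotides in capitals. The GENCODE start can differ: 206 of the 250 bases of Tuba3b and 16 of those of Slc25a31 lie inside the GENCODE vM21 gene, and 0 bases of the other 4 windows do. Asz1 lies at chr6:18109062-18109311 (minus strand, 15 CpG), Slc25a31 at chr3:40708621-40708870 (plus, 18 CpG) and Tdrd1 at chr19:56825959-56826208 (plus, 11 CpG). Tuba3b lies at chr6:145615713-145615962 (plus, 14 CpG), Syce2 at chr8:84871861-84872110 (plus, 11 CpG) and Rpl10l at chr12:66284402-66284651 (minus, 8 CpG).
Asz1: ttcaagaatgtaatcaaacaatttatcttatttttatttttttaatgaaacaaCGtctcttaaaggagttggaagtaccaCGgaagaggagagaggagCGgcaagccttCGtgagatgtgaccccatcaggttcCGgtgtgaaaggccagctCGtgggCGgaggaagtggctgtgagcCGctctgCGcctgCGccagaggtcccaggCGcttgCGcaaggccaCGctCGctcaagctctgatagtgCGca
Slc25a31: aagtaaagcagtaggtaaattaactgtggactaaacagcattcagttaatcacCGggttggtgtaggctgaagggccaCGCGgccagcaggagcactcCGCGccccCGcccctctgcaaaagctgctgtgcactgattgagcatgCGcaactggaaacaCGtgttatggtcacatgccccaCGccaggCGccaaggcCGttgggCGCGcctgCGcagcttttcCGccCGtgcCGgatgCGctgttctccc
Tdrd1: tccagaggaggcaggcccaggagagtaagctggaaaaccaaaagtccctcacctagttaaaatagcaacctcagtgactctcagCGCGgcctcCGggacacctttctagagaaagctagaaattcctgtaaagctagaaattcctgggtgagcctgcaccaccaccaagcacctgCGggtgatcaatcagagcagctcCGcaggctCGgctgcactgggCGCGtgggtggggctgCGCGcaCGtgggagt
Tuba3b: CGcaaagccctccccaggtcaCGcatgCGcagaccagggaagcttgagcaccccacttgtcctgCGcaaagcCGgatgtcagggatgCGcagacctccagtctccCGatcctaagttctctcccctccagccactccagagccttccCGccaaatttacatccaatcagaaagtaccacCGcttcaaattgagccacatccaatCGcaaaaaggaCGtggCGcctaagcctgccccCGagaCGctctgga
Syce2: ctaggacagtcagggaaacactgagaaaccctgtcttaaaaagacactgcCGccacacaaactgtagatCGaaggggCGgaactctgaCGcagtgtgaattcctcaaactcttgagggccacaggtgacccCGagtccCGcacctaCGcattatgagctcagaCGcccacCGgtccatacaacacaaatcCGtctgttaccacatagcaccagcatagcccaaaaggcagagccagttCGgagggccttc
Rpl10l: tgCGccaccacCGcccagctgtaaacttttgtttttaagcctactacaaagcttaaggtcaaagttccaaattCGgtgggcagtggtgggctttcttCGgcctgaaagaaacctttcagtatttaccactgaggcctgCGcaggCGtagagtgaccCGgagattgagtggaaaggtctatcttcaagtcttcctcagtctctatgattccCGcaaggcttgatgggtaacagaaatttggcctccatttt

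RefSeq windows were matched for 35 of the 40 genes; Spo11, Tex11, Tex15, Tdrd6 and Piwil2 had none. The number of CpG sites in the 250 bases ranged from 4 (Msh4) to 40 (Tdrd5), with a median of 14, against a median of 6 over the 27025 gene symbols of the RefSeq promoter table. CACGTG, the E-box bound by MGA:MAX, was read on either strand in 15 of the 35 (42.9%) and in 6.05% of all symbols, and it holds a CpG itself. GCGGGAA, an E2F6-type motif that also holds a CpG, was searched on both strands and found in 8 (22.9%) and in 3.84% of all symbols. At least 1 of the 2 motifs, which can share at most 1 base, was present in 20 (57.1%) against 9.56%. Of the 6 sequences above, those of Slc25a31 and Tdrd1 hold CACGTG, and those of Asz1 and Syce2 hold neither motif. Those of Tuba3b and Rpl10l hold GCGGGAA on the opposite strand, so the printed lines show it as TTCCCGC. Among the 10 genes named below as higher in a mutant at day 9, 8 of 10 windows held a motif, and among the 3 matched genes lower in 3BKO only that of Stag3 did. Tdrd1, Asz1 and Tuba3b are among the 10 and, as given below, passed the limit on level only through 3BKO at day 9. Nothing is read from the difference between these sets. These counts describe letters and were compared with no binding data.

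Most of these genes were detected at low levels and in few cells, also in WT. A mean over the 12 sums of at least 1 CPM was reached by 33 of the 40, and 13759 genes of the table passed the same limit. The 7 below it were Sycp2, Spo11, Mei1, Msh4, Tdrd6, Tdrd9 and Sohlh1. To compare cells of different depth, each cell was thinned at random to 50000 reads, and shares of cells below are counted after thinning. In WT at day 9, 33 of the 40 genes had a read in some cell, 16 in at least 10% of cells and 2 (Syce2 and Rpl10l) in at least 50%. The corresponding numbers were 34, 19 and 1 in 3AKO and 36, 14 and 4 in 3BKO. Day 3 WT had 37, 20 and 2.

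**Figure D1:**
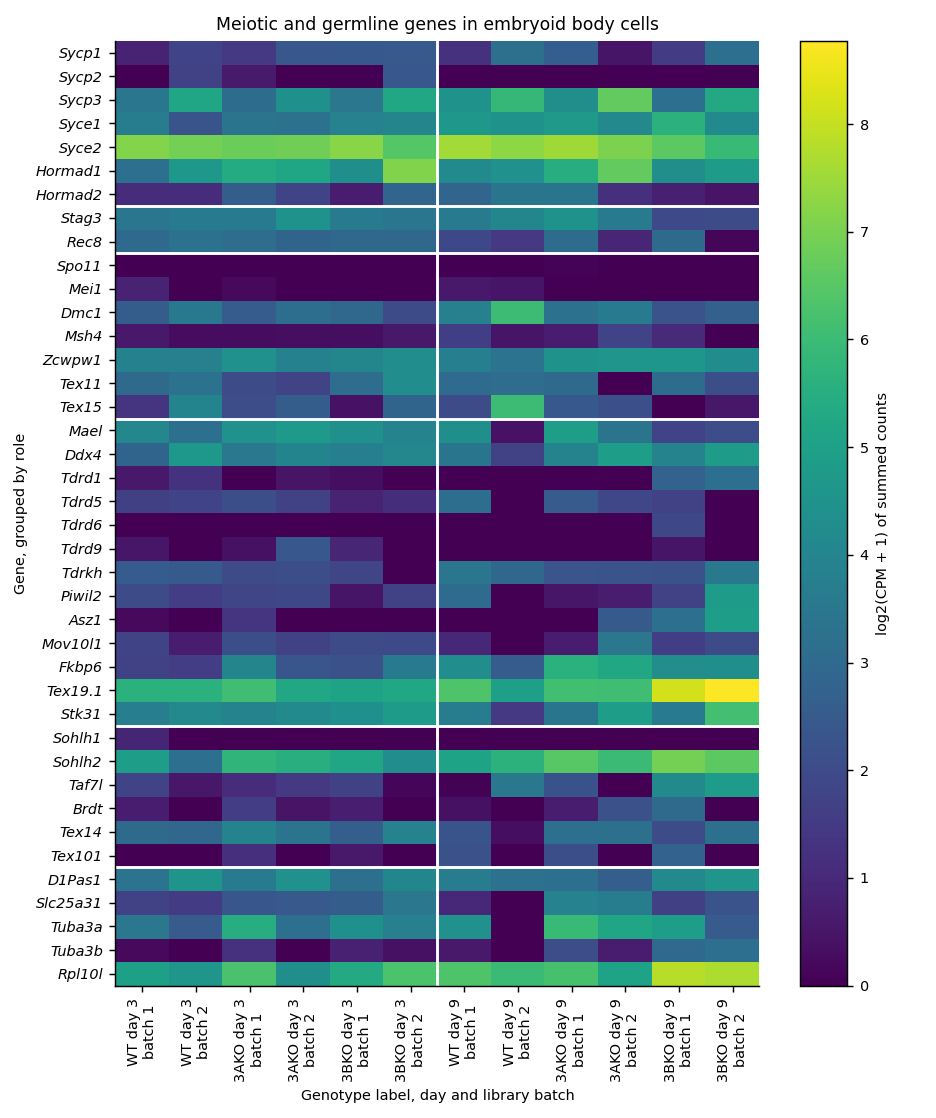
Heat map of log2(CPM + 1) for the 40 genes (rows, by role) in the 12 sums of genotype label, day and library batch (columns). Syce2 had 60.1 to 188 CPM in every sum, while Tex19.1 and Rpl10l reached their highest levels, 437 and 229 CPM, in 3BKO at day 9.

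Per length, the WT order at day 9 was Syce2 (89.6 CPM per kb), Rpl10l (72.8), Tex19.1 (33.7), Sycp3 (26.6), Syce1 (16.3), Sohlh2 (16.3), Dmc1 (12.5) and Hormad1 (10.6). Syce1 and Sohlh2 cannot be ordered. Sycp2, Spo11, Tdrd1, Tdrd6, Tdrd9, Asz1 and Sohlh1 had 0 reads in WT at day 9, where 3 reads, the limit that a count of 0 allows, equal 0.0862 CPM. Syce2 held 28.2% of all reads of the 40 genes in WT and 20.7% in 3AKO at day 9. In 3BKO the leading gene was Tex19.1 with 33%, followed by Rpl10l with 19.5%.

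A cell of WT EBs at day 9 had reads of 0 to 17 of the 40 genes (median 4; mean 4.73, SD 2.86 over 89 cells). In 3AKO the range was 1 to 14 (median 5; mean 6.05, SD 3.26 over 88 cells) and in 3BKO 1 to 12 (median 6; mean 6.16, SD 2.57 over 67 cells). The cells of all 3 genotypes overlapped widely, and both mutants had the higher mean in each batch: 5.05 and 4.07 in WT, 6 and 6.15 in 3AKO, 6.22 and 6.05 in 3BKO. At least 5 of the genes were found in 47.2% of cells in WT (exact binomial 95% interval 36.5 to 58.1%), in 63.6% in 3AKO (52.7 to 73.6%) and in 74.6% in 3BKO (62.5 to 84.5%). Intervals here and below cover only the counting of these cells and leave out any spread between cultures or clones, so they compare these cells and are no test of a genotype. Nor were amplified reads tagged by molecule. WT had a summed level of 626 CPM over the 40 genes, 3AKO of 780 and 3BKO of 1111. Tex19.1 had 366.8 CPM of this in 3BKO, against 63.04 in WT and 67.61 in 3AKO. Rpl10l had 216.1 CPM in 3BKO, 74.5 in WT and 56.5 in 3AKO. The higher sum of 3BKO therefore rests largely on these genes. Both were also read in a larger share of 3BKO than of WT cells, by 43.9 and 37.5 percentage points. Part of the higher mean number of genes per 3BKO cell is therefore theirs. The median number of all genes detected per cell was 5652 in WT, 5903.5 in 3AKO and 5879 in 3BKO, and its part in these counts was not tested.

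**Figure D2:**
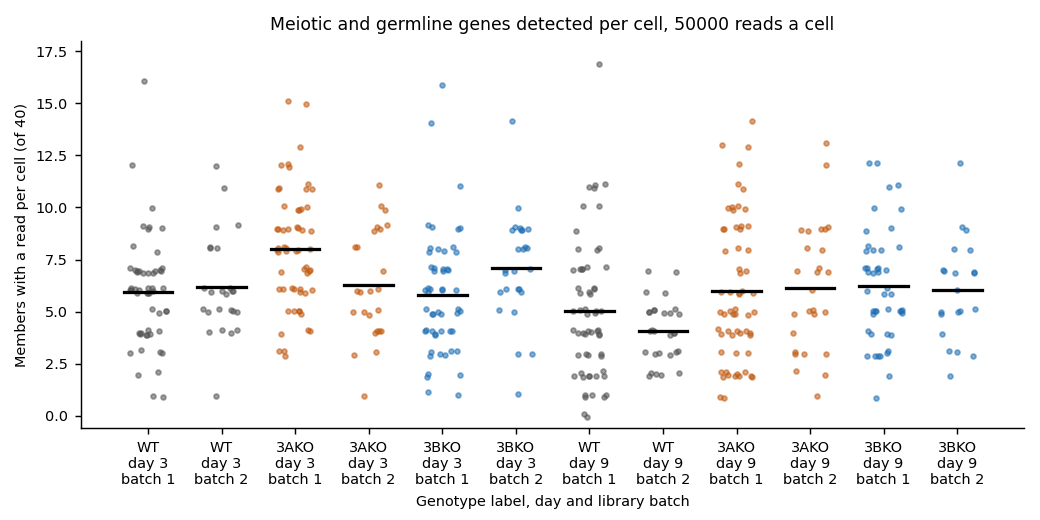
Number of the 40 genes with a read in each cell thinned to 50000 reads (y axis) by genotype label and day (x axis); points are cells, spread sideways for visibility. At day 9 WT had a mean of 4.73, 3AKO of 6.05 and 3BKO of 6.16, with ranges that overlap.

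At day 3 the mean was 6.03 in WT (SD 2.53, 79 cells), 7.48 under the label 3AKO (SD 2.85, 83 cells) and 6.24 under the label 3BKO (SD 2.85, 80 cells). By batch it was 5.96 and 6.16 in WT, 8 and 6.28 for label 3AKO, and 5.81 and 7.12 for label 3BKO. The 2 higher values, 8 and 7.12, were both on plate 211, and those of plate 210, 5.81 and 6.28, lay on either side of the WT values. In WT the mean at day 9 minus that at day 3 was -1.29 genes per cell. The summed level was higher at day 9, 626 against 419 CPM. The median number of all genes detected per WT cell, before thinning, was also lower, 7267 at day 3 and 5652 at day 9. Its part in the difference was not tested.

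A gene was called higher or lower when the ratio of log2(CPM + 1) was at least 1 in size, that is 2-fold, in both batches. This scale understates the change of low genes, and the call is a rule of size, not a test. In 3AKO at day 9, 4 of the 33 genes were higher than in WT (Hormad1, Fkbp6, Slc25a31 and Tuba3a) and 0 were lower, against 2.54% higher and 2.97% lower over all genes. In 3BKO 6 were higher (Tdrd1, Asz1, Tex19.1, Taf7l, Tuba3b and Rpl10l) and 4 lower (Hormad2, Stag3, Dmc1 and Tex15), against 4.51% and 7.04%. Of the 40, 26 were called in neither. Both comparisons use the same WT cells. Tdrd1, Asz1 and Tuba3b passed the limit of 1 CPM only through their 3BKO sums of day 9: their means over the other 10 sums were 0.257, 0.620 and 0.699 CPM. Having passed there, these 3 had to be high in 3BKO, so their part of the count of 6 is a description only. The other 3 genes higher in 3BKO, the 4 lower in it and the 4 higher in 3AKO pass the limit without the sums of the group where they were high. The median log2 ratio of the 33 genes was 0.43 in 3AKO (18 positive, 14 negative) and 0.45 in 3BKO (23 positive, 10 negative), and -0.09 over all genes in each. The medians were 0.43 and 0.45 too when genes with 0 reads in 1 group were set at the bound that 3 reads give. This moved 1 gene in 3AKO and 2 in 3BKO that already lay above the median, so the result was fixed in advance. The median and signs of 3BKO include Tdrd1, Asz1 and Tuba3b.

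**Figure D3:**
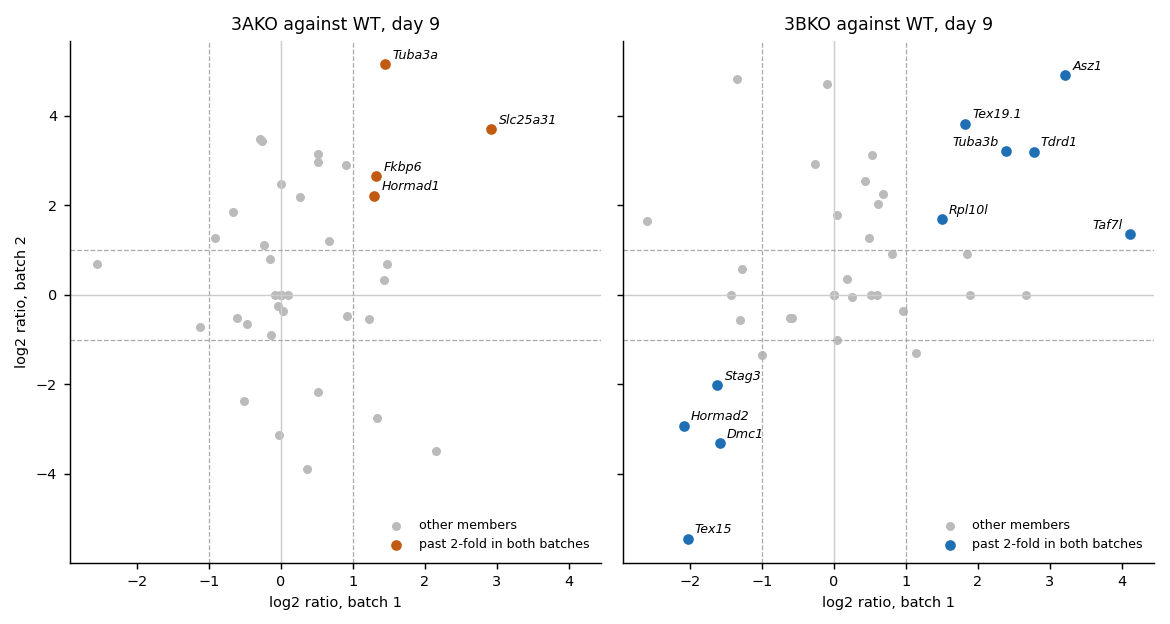
Log2 ratio of mutant to WT at day 9 in batch 1 (x axis) and batch 2 (y axis) for the 40 genes, 1 panel per mutant. The 7 genes under the limit of 1 CPM are drawn too, and dashed lines mark 1 and -1. The 4 genes higher in 3AKO and the 6 higher in 3BKO lie past the upper lines in both batches, and 4 lie past the lower lines in 3BKO.

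By role, the median log2 ratio at day 9 was -0.13 in 3AKO and -0.05 in 3BKO for the synaptonemal complex (6 of 7 genes past the limit), and 0.61 and -0.69 for cohesin (2 of 2). For recombination it was -1.10 and -1.45 (4 of 7). The piRNA and transposon group had 0.62 and 1.48 (11 of 13), the germ cell regulators 1.01 and 1.44 (5 of 6), and the germ cell paralogues 1.22 and 1.30 (5 of 5). Within the recombination group the genes did not all share a sign, and the medians of 3BKO include Tdrd1, Asz1 and Tuba3b.

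Among the synaptonemal complex genes, Syce2 (chr8:84872111-84888221, GENCODE vM21 on GRCm38), which encodes a protein of the central element, was the most widely read of the 40 genes, in 428 of 486 cells. Its day 3 levels were 139.9 and 121 CPM in WT, 112 and 117 under label 3AKO, and 147 and 86.5 under label 3BKO. At day 9 it had 188 and 155 CPM in WT, 183 and 131 in 3AKO, and 93.5 and 60.1 in 3BKO. Both 3BKO values were below every other sum of day 9, with log2 ratios to WT of -0.998 and -1.35, just outside the rule. A read was found in 79 of 89 WT cells, 81 of 88 3AKO cells and 42 of 67 3BKO cells, a share in 3BKO lower than in WT by 26.1 percentage points (interval of the difference -40.0 to -11.8). Its promoter window, printed above, had 11 CpG sites and neither motif.

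Syce1, another central element gene, had 11.8 and 3.90 CPM in WT at day 3, 9.28 and 8.67 for label 3AKO, and 13.9 and 14.9 for label 3BKO. Its day 9 levels were 24.9 and 21.7 CPM in WT, 25.4 and 16.6 in 3AKO, and 49.3 and 16.8 in 3BKO. The 3BKO batches lay on either side of WT, although a read was found in 30 of 67 3BKO cells against 20 of 89 WT cells. Sycp3, an axial element gene whose exons overlap Chpt1 on the opposite strand, had 9.87 and 34.4 CPM in WT, 7.56 and 20.2 under label 3AKO and 10.0 and 36.4 under label 3BKO at day 3. At day 9 it had 21.5 and 56.8 CPM in WT, 19.3 and 101 in 3AKO, and 8.12 and 38.3 in 3BKO. Batch 2 was the higher one in all 6 groups, by more than the genotypes of the same day differed within batch 1.

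Sycp1 codes for the transverse filament, and had 0.800 to 4.46 CPM in the 6 sums of day 3. In day 9 sums it had 1.40 and 8.45 CPM in WT, 5.09 and 0.404 in 3AKO, and 1.85 and 8.18 in 3BKO, so the sign of the 3AKO ratio differed between batches. Sycp2, of the axial element, had 68 reads in 6 cells, all at day 3.

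Hormad1 and Hormad2 encode HORMA domain proteins of chromosome axes that have not synapsed. Hormad1 (chr3:95559677-95587671) had 8.27 and 24.7 CPM in WT at day 3, 41.3 and 34.8 for label 3AKO, and 19.9 and 136 for label 3BKO. Its day 9 sums held 16.9 and 20.9 CPM in WT, 43 and 101 in 3AKO, and 19.2 and 27.2 in 3BKO. Both 3AKO values exceeded all WT and 3BKO values of that day, with log2 ratios to WT of 1.30 and 2.22, whereas those of 3BKO were 0.17 and 0.36. After thinning 34 of 88 3AKO cells had a Hormad1 read, 14 of 89 WT cells and 13 of 67 3BKO cells. The 3AKO share was 22.9 percentage points above that of WT (9.14 to 35.9). Of the 75-base windows of its exons, 12.6% also occur elsewhere (Gm15529), so part of its reads may not have been counted.

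Hormad2 (chr11:4345814-4441105) had 1.16 and 1.18 CPM in WT, 4.99 and 2.48 under label 3AKO, and 0.581 and 6.29 under label 3BKO at day 3. Day 9 gave 6.30 and 9.37 CPM in WT, 9.46 and 1.31 in 3AKO, and 0.712 and 0.369 in 3BKO. The 3BKO values were the lowest of day 9, with log2 ratios of -2.09 and -2.92, and 1 of 67 cells had a read against 9 of 89 in WT.

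The 2 cohesin genes differed from each other. Stag3 (chr5:138280240-138312393), a meiotic cohesin subunit, had 9.78 and 11.3 CPM in WT at day 3, 11.4 and 21.4 with label 3AKO, and 10.9 and 9.94 with label 3BKO. On day 9 the values were 10.8 and 15.5 CPM in WT, 21.4 and 10.9 in 3AKO, and 2.85 and 3.08 in 3BKO. The 3BKO sums lay below all others (log2 ratios -1.62 and -2.01), and reads were found in 5 of 67 cells against 15 of 89 in WT and 26 of 88 in 3AKO. The interval of the share difference to WT was -20.1 to 2.15 percentage points. Rec8, the meiotic kleisin, had 7.02 and 8.74 CPM in WT at day 3 and 6.07 to 7.79 in the mutant sums. It had 2.71 and 1.76 CPM in WT at day 9, 7.67 and 0.909 in 3AKO, and 7.19 and 0.123 in 3BKO, higher than WT in batch 1 and lower in batch 2 for both mutants.

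Of the recombination genes, Dmc1 and Tex15 were lower in 3BKO. Dmc1 (chr15:79561497-79605109), the meiotic recombinase, had 4.98 and 10.6 CPM in WT at day 3, 4.83 and 7.93 in label 3AKO, and 6.64 and 3.04 in label 3BKO. At day 9 its levels were 13.2 and 63.2 CPM in WT, 8.96 and 11.5 in 3AKO, and 3.70 and 5.48 in 3BKO. Relative to WT, the 3BKO ratios were -1.59 and -3.31, and those of 3AKO, -0.51 and -2.36, missed the rule in batch 1. A single cell held 55.2% of the reads of WT batch 2. The count of cells with a read was 19 of 89 in WT, 14 of 88 in 3AKO and 4 of 67 in 3BKO, and the 3BKO share was lower than that of WT by 15.4 percentage points (-26.2 to -3.64).

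Tex15 (chr8:33516738-33585582), which acts in recombination and in piRNA-directed silencing, had 1.51 and 14.6 CPM in WT at day 3, 3.20 and 5.08 for label 3AKO, and 0.332 and 6.18 for label 3BKO. Its day 9 values were 3.10 and 64.2 CPM in WT, 4.30 and 3.43 in 3AKO, and 0 and 0.492 in 3BKO. The 3BKO ratios were -2.04 and -5.45 on the log2 scale. Few cells carried them: 8 of 89 in WT, 4 of 88 in 3AKO and 1 of 67 in 3BKO had a read, and the interval of the difference between 3BKO and WT was -15.6 to 0.757 percentage points.

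Zcwpw1, a reader of the histone marks left by PRDM9 whose exons overlap Pilra on the other strand, had 13.4 and 13.1 CPM in WT at day 3 and 13.6 to 20.7 in the mutant sums. By day 9 it had 12.9 and 9.20 CPM in WT, 21.3 and 22.6 in 3AKO, and 23.3 and 18.3 in 3BKO. All 4 mutant sums were above both WT sums, by log2 ratios of 0.68 to 1.21. Tex11, an X-linked recombination factor, had 7.11 and 8.74 CPM in WT at day 3, 3.12 and 2.48 in label 3AKO, and 7.88 and 18.6 in label 3BKO. It had 7.30 and 7.70 CPM in WT at day 9, 7.17 and 0 in 3AKO, and 7.55 and 3.32 in 3BKO, with batch 1 alike in all genotypes.

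The genes that start recombination were at the limit of detection. Spo11, which makes the DNA breaks, had 1 read in 1 cell of the whole series. Mei1, needed for the breaks, had 28 reads in 5 cells, and Msh4, which stabilises crossover intermediates, 122 reads in 24 cells, with at most 2.42 CPM in a sum.

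Of the piRNA and transposon genes, Tex19.1, Asz1 and Tdrd1 were higher in 3BKO and Fkbp6 in 3AKO. Tex19.1 (chr11:121146143-121148319), a gene of transposon control in germ cells and placenta, had 48.1 and 47.1 CPM in WT at day 3, 66.9 and 36.9 under label 3AKO, and 32.8 and 37.6 under label 3BKO. At day 9 it had 80.4 and 29.9 CPM in WT, 68.4 and 66.4 in 3AKO, and 285 and 437 in 3BKO. Both 3BKO sums were above the other 10, with log2 ratios to WT of 1.82 and 3.83, and to 3AKO of 2.04 and 2.7. Reads were found in 55 of 67 3BKO cells, 34 of 89 WT cells and 36 of 88 3AKO cells, so the 3BKO share exceeded that of WT by 43.9 percentage points (28.2 to 56.96). The highest cell had 3113 CPM in 3BKO and 669 CPM in WT. Its 250 promoter bases held 15 CpG sites and neither motif.

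Asz1 (chr6:18050964-18109061) codes for GASZ, a protein of germ granules. Day 3 sums had 0.178 and 0 CPM in WT, 1.48 and 0 with label 3AKO, and 0 and 0 with label 3BKO. The day 9 values were 0 and 0 in WT, 0 and 4.54 CPM in 3AKO, and 8.26 and 29.1 CPM in 3BKO. Against the 3 reads that a count of 0 in WT allows, the 3BKO level over both batches was 226-fold higher. This compares amplified reads, not cells, and sets no lower limit on the difference. The 3BKO level came from 6 of 67 cells (0 of 89 in WT, 1 of 88 in 3AKO). In 3BKO 1 cell held 37.9% of the reads of batch 1 and another 89% of those of batch 2.

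Tdrd1 (chr19:56826209-56870012), a Tudor protein gene of the germ granules, had 0.533 and 1.42 CPM in WT at day 3, 0 and 0.372 in label 3AKO, and 0.249 and 0 in label 3BKO. Day 9 sums had 0 reads in WT and in 3AKO and 5.84 and 8.18 CPM in 3BKO. That was 82.4-fold above the 3 reads allowed in WT, again a comparison of reads and no lower limit. The 3BKO reads lay in 4 cells (3 after thinning, of 67), of which 1 per batch held 84.1% and 97.0%. The interval of the share difference to WT was -0.912 to 12.5 percentage points. The upstream sequences of Asz1 and Tdrd1 are the first and the third printed above.

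Fkbp6 (chr5:135291704-135350044), a co-chaperone of piRNA loading, had 2.22 and 2.01 CPM in WT at day 3, 15.0 and 4.09 for label 3AKO, and 3.57 and 11.4 for label 3BKO. On day 9 it had 18.5 and 4.94 CPM in WT, 48 and 36.5 in 3AKO, and 19.2 and 19.6 in 3BKO. The 3AKO sums were above all others of that day (log2 ratios to WT 1.33 and 2.66). A read was seen in 28 of 88 3AKO cells, 9 of 89 WT cells and 13 of 67 3BKO cells, and the 3AKO share was 21.7 percentage points above that of WT (9.12 to 33.8).

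The remaining piRNA genes were called in neither mutant, and their ratios often differed in sign between batches. Ddx4, the Vasa helicase, had 6.13 and 24.8 CPM in WT at day 3, 10.3 and 14.5 in label 3AKO and 12.7 and 15.5 in label 3BKO. Its day 9 levels were 9.58 and 2.34 CPM in WT, 14.2 and 28.8 in 3AKO, and 14.2 and 28.1 in 3BKO, so both mutants were above WT in both batches but by less than 2-fold in batch 1. Stk31, a Tudor domain gene, had 12.4 to 27 CPM in the sums of day 3. It had 11.9 and 1.76 CPM in WT at day 9, 9.75 and 28.8 in 3AKO, and 11 and 71 in 3BKO, alike in batch 1 and higher than WT in batch 2 of both mutants.

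Mael, of the nuclear piRNA pathway, had 15.8 and 8.15 CPM in WT at day 3, 20.5 and 25.5 with label 3AKO and 20.2 and 14.2 with label 3BKO. For day 9 the values were 19.7 and 0.335 CPM in WT, 28.6 and 9.49 in 3AKO, and 2.42 and 3.20 in 3BKO. Piwil2, the PIWI protein MILI, had 0.415 to 3.02 CPM at day 3. Its sums at day 9 held 7.39 and 0 CPM in WT, 0.430 and 0.606 in 3AKO, and 2.28 and 27.3 in 3BKO, where the batches of 3BKO lay on opposite sides of WT.

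Tdrkh, a Tudor gene of piRNA trimming that overlaps Oaz3 on the opposite strand, had 0 to 4.89 CPM at day 3. At day 9 it had 9.88 and 6.78 CPM in WT, 4.01 and 3.74 in 3AKO, and 3.49 and 10.6 in 3BKO, lower than WT in 3AKO by -1.12 and -0.72 on the log2 scale. Tdrd5, which overlaps 4930518J20Rik, had 0.830 to 3.35 CPM at day 3, and 8.05 and 0 CPM in WT, 4.73 and 2.63 in 3AKO and 2.35 and 0 in 3BKO at day 9. Mov10l1, a helicase of piRNA biogenesis, had 0.591 to 3.35 CPM at day 3, and 1.01 and 0 CPM in WT, 0.645 and 10.2 in 3AKO and 2.07 and 3.08 in 3BKO at day 9. Only the 3BKO sums of Mov10l1 were above WT in both batches, with 3 cells behind them. Tdrd6 had 38 reads in 1 cell, of 3BKO at day 9, and Tdrd9 60 reads in 7 cells.

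Sohlh2, a bHLH transcription factor of germ cells, was the regulator with the highest level. It had 29.4 and 8.27 CPM in WT at day 3, 52.1 and 45.1 in label 3AKO, and 35.9 and 18.8 in label 3BKO. Its levels at day 9 were 32.9 and 49 CPM in WT, 90.2 and 62.4 in 3AKO, and 121 and 92.8 in 3BKO. All 4 mutant sums lay above both WT sums, but batch 2 stayed under 2-fold, with log2 ratios of 1.43 and 0.34 in 3AKO and 1.85 and 0.91 in 3BKO. It was read in 24 of 89 WT cells, 41 of 88 3AKO cells and 40 of 67 3BKO cells, which is 19.6 (4.66 to 33.7) and 32.7 (16.3 to 47.5) percentage points above WT. Its partner gene Sohlh1 had 10 reads in 2 cells, both WT at day 3.

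Taf7l (chrX:134460118-134476490), a germ cell subunit of TFIID, had 2.49 and 0.473 CPM in WT at day 3, 1.17 and 1.73 for label 3AKO, and 2.24 and 0.101 for label 3BKO. Its day 9 sums were 0.0437 and 10.3 CPM in WT, 3.65 and 0 in 3AKO, and 17.1 and 27.9 in 3BKO. The 3BKO ratios of 4.12 and 1.36 rested on 4 cells, of which 1 per batch held 60% and 91% of the reads. In WT a single cell of batch 2 held every read of that batch.

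Tex14, of the bridges between germ cells, had 7.2 and 6.50 CPM in WT at day 3, 14.2 and 9.42 in label 3AKO, and 5.31 and 13.8 in label 3BKO. It had 3.89 and 0.251 CPM in WT at day 9, 8.17 and 8.38 in 3AKO, and 3.06 and 8.55 in 3BKO. The 3AKO ratios were 0.91 and 2.91, short of the rule in batch 1, and the share of cells with a read was 9.12 percentage points above WT (1.05 to 17.9). Brdt, the testis bromodomain gene, had at most 2.03 CPM at day 3, and 0.306 and 0 CPM in WT, 0.573 and 3.53 in 3AKO and 7.27 and 0 in 3BKO at day 9. Tex101, a cell surface glycoprotein gene, was read in 6 cells, with 3.54, 3.30 and 5.84 CPM in batch 1 of WT, 3AKO and 3BKO at day 9, from 1 cell each.

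The last group holds germ cell paralogues of genes that all cells use. Rpl10l (chr12:66283379-66284401), a retrogene copy of the ribosomal protein gene Rpl10, had 30.2 and 22.9 CPM in WT at day 3, 74.7 and 19.6 with label 3AKO, and 40.1 and 76.4 with label 3BKO. On day 9 the sums were 80.7 and 62.7 CPM in WT, 73.1 and 33.1 in 3AKO, and 229 and 205 in 3BKO. The 3BKO ratios were 1.49 and 1.69 and those of 3AKO -0.14 and -0.90, so the 2 mutants lay on opposite sides of WT in both batches. Reads were seen in 59 of 67 3BKO cells, 45 of 89 WT cells and 40 of 88 3AKO cells. The 3BKO share was 37.5 percentage points above WT (22.6 to 50.2), and that of 3AKO differed from WT by -5.11 (-20.3 to 10.3). Windows shared with other genes made up 0.316% of its exon. Tex19.1 or Rpl10l was read in 65 of 67 3BKO cells and both in 49, against 55 and 24 of 89 WT cells and 56 and 20 of 88 3AKO cells.

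Slc25a31 (chr3:40708855-40726096), the germ cell ADP/ATP carrier, had 2.22 and 1.89 CPM in WT at day 3, 4.05 and 4.46 in label 3AKO, and 5.06 and 10.2 in label 3BKO. At day 9 it had 0.962 and 0 CPM in WT, 13.9 and 12 in 3AKO, and 2.14 and 3.75 in 3BKO. The 3AKO ratios, 2.93 and 3.70, were the largest of that mutant in batch 1, and 11 of 88 3AKO cells had a read against 2 of 89 in WT (difference 1.95 to 19.2 percentage points).

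Tuba3a (chr6:125278274-125286042), an alpha-tubulin gene of the testis, had 10.1 and 4.73 CPM in WT at day 3, 43.5 and 8.18 for label 3AKO, and 20.4 and 13.3 for label 3BKO. Its day 9 levels were 20.8 and 0 CPM in WT, 58.6 and 34.5 in 3AKO, and 28.5 and 4.8 in 3BKO. The 3AKO ratios were 1.45 and 5.15, the second against a WT sum with 0 reads. The share of cells, 25 of 88 in 3AKO and 15 of 89 in WT, differed by 11.6 percentage points (-1.54 to 24.3). Tuba3b (chr6:145615757-145621479) had 0 to 1.40 CPM at day 3, and 0.525 and 0 CPM in WT, 3.22 and 0.606 in 3AKO and 6.98 and 8.25 in 3BKO at day 9. The 3BKO ratios of 2.39 and 3.21 rested on 4 cells, 1 of which held all reads of batch 2. The 2 tubulin genes share 19.9% and 18.9% of their exon windows with each other or with Gm5366, so reads of one may have been lost or placed on the other, and Tuba3a overlaps 4930417O13Rik on the opposite strand.

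D1Pas1, the autosomal testis copy of Ddx3x, overlaps Gm37912 on the opposite strand and had 9.07 and 22.2 CPM in WT, 10.8 and 20.4 in label 3AKO, and 8.38 and 15.3 in label 3BKO at day 3. It had 11.8 and 8.95 CPM in WT at day 9, 8.24 and 5.35 in 3AKO, and 17 and 23 in 3BKO. The ratios of 3BKO were positive in both batches (0.49 and 1.27) and those of 3AKO negative (-0.47 and -0.65), all but 1 under 2-fold.

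**Figure D4:**
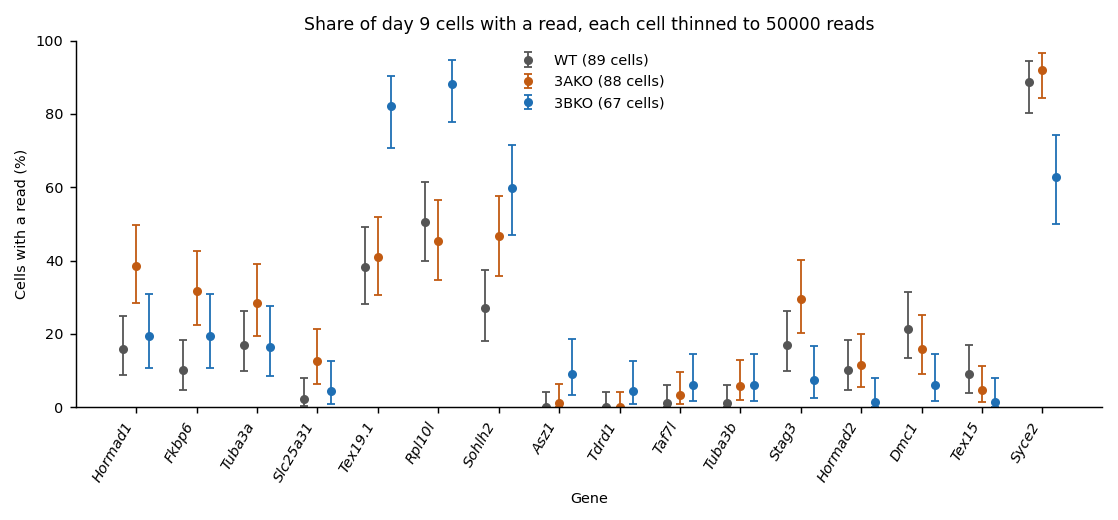
Share of cells with a read (percent, after thinning to 50000 reads) at day 9 for 16 of the genes in WT, 3AKO and 3BKO; bars are exact binomial 95% intervals. Tex19.1 and Rpl10l were read in 55 and 59 of 67 3BKO cells, Hormad1 and Fkbp6 in 34 and 28 of 88 3AKO cells, and Asz1 and Tdrd1 in 6 and 3 of 67 3BKO cells.

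The called genes therefore differed in how many cells carried them. At least 1 of the 4 genes higher in 3AKO was read in 53 of 88 3AKO cells (60.2%, 49.2 to 70.5%), 27 of 89 WT cells (30.3%, 21 to 41%) and 30 of 67 3BKO cells (44.8%, 32.6 to 57.4%). At least 2 of them were read in 33, 9 and 10 cells. Of the 4 genes Tdrd1, Asz1, Taf7l and Tuba3b at least 1 was read in 14 of 67 3BKO cells (20.9%, 11.9 to 32.6%), 2 of 89 WT cells and 9 of 88 3AKO cells. Only 3 cells, all 3BKO, had 2 of these. At least 1 of the 4 genes lower in 3BKO was read in 9 of 67 3BKO cells (13.4%), 44 of 89 WT cells (49.4%) and 40 of 88 3AKO cells (45.5%). The members of each set were picked by the same contrast, so these shares describe them only.

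Without the cell that held most reads of a gene in each sum, Tex19.1, Taf7l and Rpl10l were the 3 genes higher in 3BKO. Sycp3 and Syce2 joined the 4 lower ones, against 3.79% higher and 9.07% lower over all genes. For Taf7l this removed the WT cell with every read of batch 2 and, of its 4 3BKO cells, 1 per batch. The 4 genes of 3AKO were joined by Tex14. Cells with reads of Zscan4c, Zscan4d or Zscan4f, marker genes of a 2-cell-like state, numbered 14 of 67 in 3BKO at day 9 (20.9%), 3 of 88 in 3AKO, 1 of 89 in WT and 0 at day 3. In 3BKO they included 3 of 6 cells with Asz1 reads, 2 of 4 with Tdrd1, 3 of 4 with Taf7l, 2 of 4 with Tuba3b, 11 of 56 with Tex19.1 and 13 of 63 with Rpl10l, before thinning. They held 94.1% of the Taf7l reads, 80.6% of those of Tuba3b and 42.6% of those of Tex19.1, but 12.2% of those of Asz1 and 7.91% of those of Tdrd1. With these cells left out, Tex19.1 and Rpl10l were higher in 3BKO, Taf7l and Tuba3b were not, and Syce2 joined the 4 lower genes. Tdrd1 and Asz1 were called higher too, from 2 and 3 of the 53 other 3BKO cells. Both passed the limit only through 3BKO at day 9, so nothing is read from their calls. In this setting 3.86% of all genes were higher and 7.80% lower in 3BKO. Over the 10 genes of the 2-cell-like list the summed level was 639 and 688 CPM in 3BKO at day 9, 40.1 and 0.101 in 3AKO, and 0.219 and 0 in WT. No gene of the list had a read in WT at day 3. Tcstv1, Tcstv3 and Tmem92 were at 0 in batch 2 of 3BKO. The 6 genes of the list that were called higher in 3BKO had at most 0.337 CPM on average over the other 10 sums, so they passed the limit only through 3BKO at day 9, and nothing is read from their number.

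**Figure D5:**
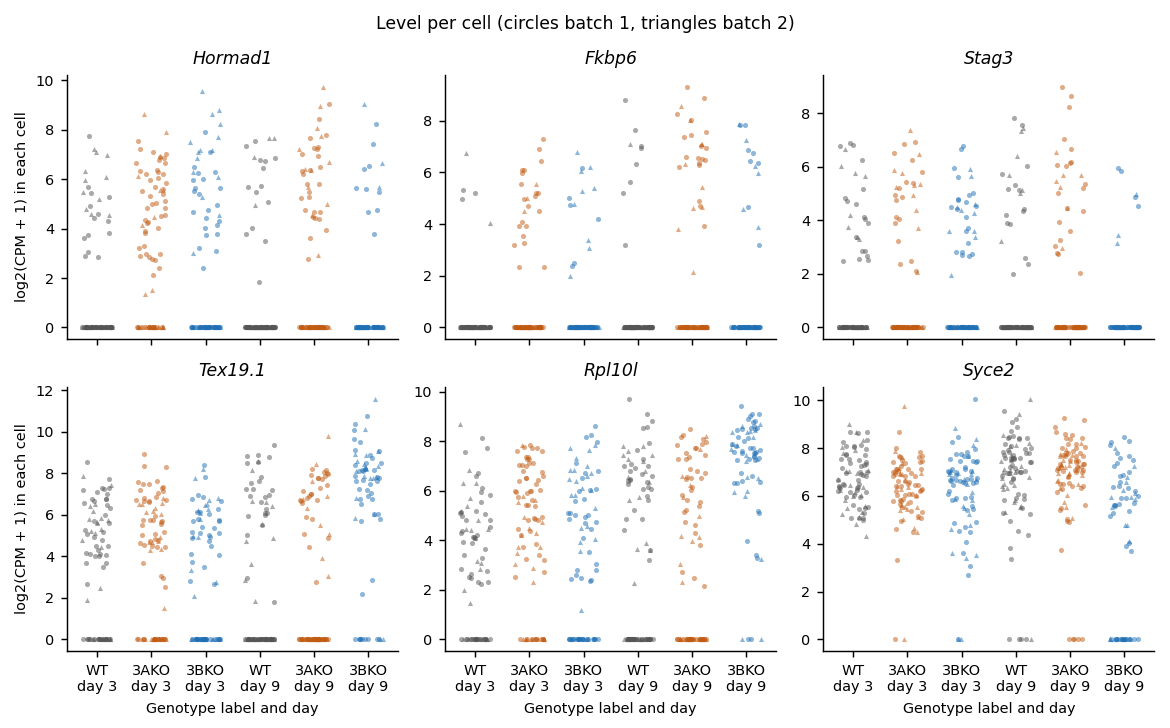
Level of Hormad1, Fkbp6, Stag3, Tex19.1, Rpl10l and Syce2 in each cell (log2(CPM + 1), y axis) by genotype label and day (x axis), with a panel for each gene. Circles are batch 1 and triangles batch 2. Summed over the 40 genes, which the panels do not show, the highest day 9 cell had 4036 CPM in 3BKO, 3353 in 3AKO and 2006 in WT.

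At day 3 and by label, 0 of the 33 genes were higher or lower in the libraries labelled 3AKO (over all genes 1.46% higher and 0.778% lower), and Hormad1 alone was higher and 0 lower in those labelled 3BKO (1.11% and 0.814%). Both use the same WT cells. The median log2 ratio of the genes was 0.41 for label 3AKO and 0.32 for label 3BKO, against 0.05 and 0.0 over all genes. By plate, a split made after the levels of Dnmt3a were seen, 5 of the 33 were higher on plate 211 than in WT (2.29% over all genes) and 0 lower (1.48%). They were Hormad1, Hormad2, Fkbp6, Tuba3a and Rpl10l. Plate 210 had 0 higher (1.63%) and 0 lower (1.07%). On plate 211, where Dnmt3a had 25.8 and 12.8 CPM, Hormad1 had 41.3 and 136 CPM, against 8.27 and 24.7 in WT and 19.9 and 34.8 on plate 210. Fkbp6 had 15.0 and 11.4 CPM there, 2.22 and 2.01 in WT and 3.57 and 4.09 on plate 210. For Rpl10l the values were 74.7 and 76.4, 30.2 and 22.9, and 40.1 and 19.6 CPM. Within each batch these 3 genes were higher on plate 211 than in WT and on plate 210. The same held for Hormad2, with 4.99 and 6.29 CPM on plate 211, 1.16 and 1.18 in WT, and 0.581 and 2.48 on plate 210. Tuba3a had 43.5 and 13.3 CPM on plate 211, 10.1 and 4.73 in WT, and 20.4 and 8.18 on plate 210. Within each batch it too was higher on plate 211, although batch 2 of plate 211 lay below batch 1 of plate 210. Tex19.1 had 66.9 and 37.6 CPM on plate 211 and 48.1 and 47.1 in WT, on either side of it. Tuba3a, Hormad1 and Fkbp6 were also called higher in 3AKO at day 9 and Rpl10l in 3BKO, where Hormad2 was called lower.

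WT cells themselves differed between the days. From day 3 to day 9, Syce1, Hormad2, Dmc1 and Rpl10l were the 4 genes higher at day 9, and Rec8 alone was lower, against 6.72% and 2.41% over all genes. Their levels stand above, and the log2 ratios were 1.01 and 2.21 for Syce1, 1.76 and 2.25 for Hormad2, 1.24 and 2.46 for Dmc1, 1.39 and 1.41 for Rpl10l, and -1.11 and -1.82 for Rec8. Of all called genes in this comparison 73.6% were higher, but 54.2% with TMM factors and 56.8% with median-ratio size factors, and the median of all genes was 0.21, 0.02 and 0.04. The 33 genes had a median of 0.40.

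Other genes of these pathways were read from a list of 28, of which 19 passed the limit. Over all genes 2.54% were called higher and 2.97% lower in 3AKO at day 9, and 4.51% and 7.04% in 3BKO. These shares were 1.46% and 0.778% for label 3AKO and 1.11% and 0.814% for label 3BKO at day 3. From day 3 to day 9 in WT they were 6.72% and 2.41%. In 3AKO at day 9, Dazl, Smc1b, Majin and Piwil4 were higher and Tdrd7 lower (median 0.73), and in 3BKO Dazl and Stra8 were higher and Psmc3ip lower (median -0.42). Dazl, an RNA-binding protein of germ cells, had 12.8 CPM over both batches of WT, against 81.2 in 3AKO and 82.2 in 3BKO. Stra8, the gate to meiosis, had 23.1 CPM in WT and 244 in 3BKO at day 9. In 3AKO it had 9.18 CPM, below WT in both batches (log2 ratios -0.97 and -1.92). By label at day 3, Dazl, Stra8 and Smc1b were higher in label 3AKO (median 0.89), and Stra8 and Smc1b higher and Boll lower in label 3BKO (median 0.28). In WT, Stra8, Smc1b and Tdrd7 were higher at day 9 than at day 3 (median 0.44). The summed level of the list was 184 to 271 CPM in WT, 318 to 340.2 in 3AKO and 417 to 465 in 3BKO at day 9, and Meiob, Rad21l, Nanos2 and Figla were at 0 in all 6 of these sums.

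The genes of the repressor PRC1.6 were also read. Of the 11 genes of the PRC1.6 list 10 passed the limit, and 0 were called higher or lower in each of the 5 comparisons, by size alone and with no test. Over all genes 1.11 to 6.72% were called higher and 0.778 to 7.04% lower in a comparison. With 10 genes a count of 0 is near these shares, and nothing is read from it. At day 9 the median was -0.27 for 3AKO and -0.15 for 3BKO. It was -0.11 and -0.09 for the 2 labels at day 3, and -0.08 from day 3 to day 9 in WT. The list had 589 and 804 CPM in WT at day 9, 424 and 673 in 3AKO, and 520.3 and 715 in 3BKO, with reads of all 11 genes in every sum.

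Since some of the genes are also expressed by primordial germ cells and by naive or 2-cell-like cells, other marker lists were read beside them. The shares called over all genes in each comparison are those given with the list of 28. Of 8 primordial germ cell markers, Prdm14 and Tfap2c were higher and Nanos3 lower in 3BKO at day 9, 0 were called in 3AKO, Kit was higher under both labels at day 3, and 5 were higher in WT at day 9 than at day 3. Their median log2 ratios were 0.30 in 3AKO and 0.22 in 3BKO. Their summed level was 838 and 653 CPM in WT, 640.3 and 395 in 3AKO, and 747 and 459 in 3BKO, and Dppa3 was at 0 in batch 1 of 3BKO. Of 12 epiblast and pluripotency markers, 1 was higher in 3AKO (Pou3f1), and 3 were higher (Nodal, Zfp42, Klf4) and 1 lower (Fgf5) in 3BKO at day 9, with sums of 4691 and 2818 CPM in WT, 4193 and 3450 in 3AKO, and 7106 and 4838 in 3BKO. Of 10 ectoderm markers, 9 passed the limit. In 3AKO Fabp7 was higher and Hes3 lower, and in 3BKO Sox1, Hes3, Fabp7 and Sox11 were lower. Their sums were 416 and 293 CPM in WT, 350.1 and 307 in 3AKO, and 555 and 424 in 3BKO, with Sox1, Nes and Fabp7 at 0 in both batches of 3BKO. Of 10 meso-endoderm markers, 8 passed. Mixl1 and Foxa2 were higher and Gata4 lower in 3AKO, and Gata4 and Sox17 lower in 3BKO, with sums of 63.3 and 49.4 CPM in WT, 53.2 and 131 in 3AKO, and 17.7 and 44.5 in 3BKO. Batch 2 of 3BKO had reads of 1 of these 10 genes. The part of these cell states in the levels of the 40 genes was not tested.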

How the data were processed

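Full-length cDNA of single sorted cells was amplified by a modified Smart-seq2 protocol and sequenced as single-end reads of 75 bases. The authors deposited raw read counts per gene name, with no normalization. Per the labels' processing notes and the study's methods, they used FastQC 0.11.2, Trim Galore 0.5.0, STAR 2.7.1a on mm10/GRCm38.p6 and featureCounts 1.6.1 with a GENCODE annotation. Reads that mapped to several places were left out, which lowers the counts of near-identical genes. Strand use in counting is not given in the sources used here, so genes with an overlapping gene on the opposite strand are marked. The table holds 55228 names, of which 97.0% were found in GENCODE vM21. Its other 26 columns belong to no sample and were not used. Wells received single cells, doublets were not called, and 0 pairs of cells had identical counts.

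Cells were filtered as in the study's methods (50000 reads, 2000 genes, 50% mitochondrial reads). Counts were summed in Python 3.11.15 (numpy 2.4.6, pandas 2.3.3, scipy 1.17.1) over the kept cells of each genotype, day and library batch and scaled to CPM. The prior of the log2 ratios was 1 CPM, and the background was the 13759 genes with a mean of at least 1 CPM over the 12 sums. Shares of cells were counted after thinning each cell to 50000 reads and have exact (Clopper-Pearson) 95% intervals, and the interval of a difference combines the bounds of both shares. The calculation was tested on simulated data. Genes past the limit or the rule of 2-fold in both batches are given in every sum or by their range, and the others by counts. The 40 genes, the other germline, PRC1.6, primordial germ cell, 2-cell-like, epiblast, ectoderm and meso-endoderm lists and the measures were chosen with earlier results of these data known. Promoters came from RefSeq (GRCm38.p6). Alternatives were no or a stricter cell filter, each batch alone, thinned cells, the mean of single-cell CPM, sums without the cell with most reads, other priors and limits, TMM factors (edgeR 4.0.16) and median-ratio size factors (DESeq2 1.42.0, R 4.3.3).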

Additional observations from a re-analysis of the deposited data

Results flagged for a closer look

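Rpl10l was singled out because within each batch the 2 mutants lay on opposite sides of WT at day 9. Its log2 ratio to WT over both batches was 1.52 in 3BKO (1.49 and 1.69 by batch) and -0.39 in 3AKO (-0.14 and -0.90). The difference between the mutants was not tested, since each genotype was 1 sample. Reads of Rpl10l were found in 59 of 67 3BKO cells and 40 of 88 3AKO cells, shares that differed by 42.6 percentage points (27.6 to 55.2, counting error only). The 3AKO share differed from that of WT by -5.11 points (-20.3 to 10.3). At day 3 Rpl10l was also called higher on plate 211, where Dnmt3a was low, with 74.7 and 76.4 CPM against 30.2 and 22.9 in WT.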

How the results depend on the processing

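No paired analysis was possible because the labels give no replicate within a genotype and day. Of 134 counts of higher or lower genes under the alternatives, 91 were within 1.5 times the value reported. Of 234 log2 ratios of called genes, 104 kept their sign but left the interval that read counting gives, and 1 had the other sign. It was Taf7l in 3BKO, -0.72 without the cells with Zscan4c, Zscan4d or Zscan4f reads, an alternative chosen after seeing the data. Genes were called by their sign in both batches, so single batches and other priors could not reverse it. The agreement of signs was therefore largely fixed in advance. The causes were not tested beyond what each setting leaves out. In 3BKO at day 9, 3.79% of all genes were higher without the cell with most reads and 1.10% with a prior of 10 CPM. At a mean of at least 5 CPM the share was 3.48%, and 1.57% were lower with 10 CPM. Outside the single batches, 0.0363 to 9.21% of all genes were higher and 0.0145 to 9.61% lower in a comparison. Genes higher in 3BKO at day 9 (6 reported) numbered 3 without the cell with most reads, 16 in batch 2 alone, 2 with a prior of 10 CPM and 3 at a mean of at least 5 CPM, and lower ones (4) 9 in batch 1 alone, 7 in batch 2 and 0 with 10 CPM. In 3AKO the higher genes (4) numbered 9 in batch 1 and 14 in batch 2, and the lower ones (0) 1 with thinned cells, 1 without the Zscan4 cells, 2 in batch 1 and 6 in batch 2. For label 3AKO at day 3 the higher genes (0) were 1 with thinned cells, 1 without the cell with most reads, 8 in batch 1, 3 in batch 2 and 2 with 0.1 CPM, and the lower ones (0) 2 in batch 2 and 2 with 0.1 CPM. For label 3BKO the higher genes (1) were 2 with no cell filter, with the stricter filter, with the mean of single-cell CPM, without the cell with most reads and in batch 1, 10 in batch 2, 4 with 0.1 CPM and 0 with 10 CPM, and the lower ones (0) 3 with thinned cells, 1 in batch 1, 4 in batch 2 and 1 with 0.1 CPM. From day 3 to day 9 in WT, the higher genes (4) were 2 with thinned cells or the mean of single-cell CPM, 9 in batch 1, 8 in batch 2 and 1 with 10 CPM, and the lower ones (1) 2 with the mean of single-cell CPM, without the cell with most reads and in batch 1, 11 in batch 2, 4 with 0.1 CPM and 0 with 10 CPM. The difference in the mean number of genes per cell was within 1 SD of that reported in 31 of 35 alternatives. This SD is that of the differences in batch 1 and batch 2, not a spread over cells. The single batches are also among the alternatives, so their closeness was largely fixed in advance. For label 3BKO at day 3 the difference was 0.21 as reported, -0.0253 with no cell filter and -0.15 in batch 1. For WT between the days it was -1.29 as reported, -2.60 without thinning and -0.0239 with 2 reads for detection. Thinning to 100000 reads left out 23 of 486 cells, and the stricter filter kept 444. Across all genes, pseudocounts of 0.1 and 10 CPM gave 565 and 29 higher and 654 and 35 lower in 3AKO at day 9, against 350 and 408, and 1322 and 216 lower in 3BKO, against 969. Depth limits what can be said of the 7 genes under 1 CPM and of each gene read in fewer than 10% of cells.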
